A study of Coffea canephora with 12 samples.

Results

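Of 25574 genes counted in leaves and leaf explants of *C. canephora*, 32 lay far below their earlier level after induction of somatic embryogenesis. These 32 genes were low at all 3 later time points sampled, with no library from between or after those points. They were chosen by CPM, the reads of a gene per 1000000 reads counted in genes, with 0.5 added before ratios were taken. The lowest of the 6 libraries made before induction was at least 4 times the highest of the 6 libraries made after it, and the means at the 3 later time points lay within 4-fold of each other. The difference between the stages is thus what chose these genes, and it is described here with no test. In somatic embryogenesis, cells of a differentiated organ give rise to embryos without fertilization. Cells that take this path leave the programme of the source organ, and growth regulators in the medium are used to start it. Auxins such as naphthaleneacetic acid (NAA) and cytokinins such as kinetin (KIN) and benzyladenine (BA) are the regulators most used for it.

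RNA-seq was made at 6 time points, with 2 libraries at each. Leaves of in vitro plantlets were taken at 14 days before induction (14 dbi, MS salts with no growth regulator, the control) and at 9 and 0 dbi (MS salts with NAA and KIN). Leaf material taken after induction, at 1, 2 and 21 dai (days after induction), came from medium with Yasuda salts and BA, a liquid culture of cut leaf discs kept in the dark. The first 3 points are called pretreatment and the last 3 induction. The stages therefore also differ in cutting, medium, light and growth regulator, which cannot be told apart from induction itself. By the submitters' account both libraries of a time point are sequencing repeats of the same biological sample, so that p-values measure only the spread between libraries. This spread was far wider than sampling noise, with a chi-square per degree of freedom from 33.4 (1 dai) to 299.7 (0 dbi). The account is therefore given as stated, and what the spread holds was not tested. In leaf tissue as a whole, less RNA per cell and fewer cells that hold it cannot be told apart.

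Reads counted in genes ran from 10091539 to 36525500 per library, and no read in a library meant at most 0.0821 to 0.297 CPM by the limit of 3 counts, which covers counting error only. Libraries of replicate 1 at 14 dbi, 0 dbi, 2 dai and 21 dai had 17.6% to 20.3% of reads set aside for low mapping quality, against 11.2% to 12.7% in the other 8. Genes with reads numbered 17204 to 19116 at 9 dbi and 1 dai and 19833 to 22257 elsewhere. Across genes, the 2 libraries of a time point had Pearson correlations of log2(CPM + 0.5) from 0.915 (9 dbi) to 0.98 (2 dai), and genes are not independent replicates. The sources used here pair the gene IDs with neither names nor functions, except for the 18 *CcGH3* genes. Leaf, embryo and cell-division markers could therefore not be applied, and the 32 genes are described by ID, level and place in the gene order.

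The genes had ample reads before induction and few after it. Their mean over the 6 pretreatment libraries ran from 29.2 to 2212 CPM with a median of 132, and their mean over the 6 induction libraries from 0.168 to 142 CPM with a median of 5.35. The ratio of these means lay between 8.04 (*Cc06_g09380*) and 432 (*Cc03_g04300*), with a median of 20.9. Taken from the lowest library before to the highest after induction, the ratio was 4.001 to 41.1, with a median of 5.12. Zero reads were found in 7 of 384 gene and library pairs, all after induction, and 26 genes kept reads in every library.

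**Figure D1:**
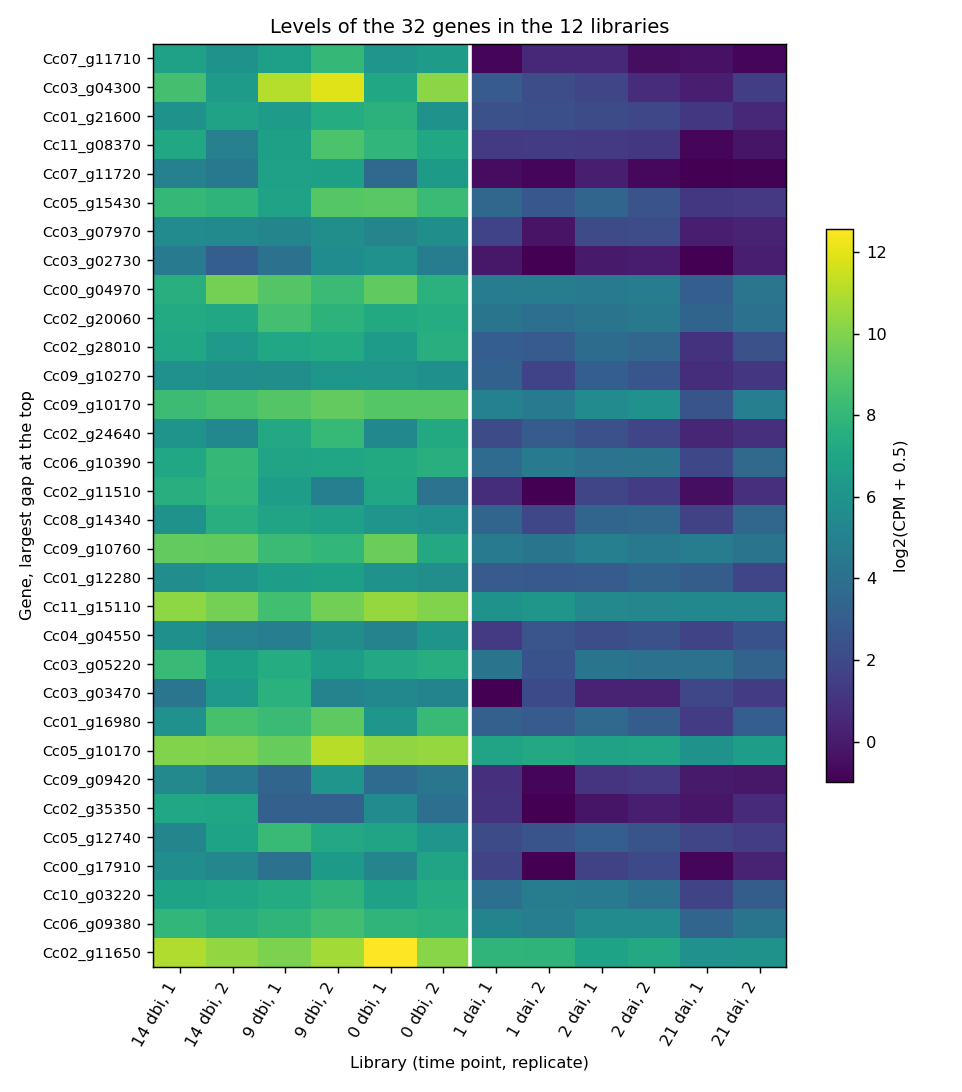
Heat map of log2(CPM + 0.5) for the 32 genes (rows, largest gap between the stages at the top) in the 12 libraries (columns, time point and replicate), with a white line between pretreatment and induction. Every row is brighter on the left, as the choice of genes requires, and the rows of *Cc07_g11710*, *Cc07_g11720* and *Cc03_g02730* stay dark after induction, at 1.01 CPM or less.

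By the choice of genes, the low level was already present at 1 dai, the first sampling after the explants were cut. Genes that fell only later were left out by the rule, so the folds and sums that follow describe the 32 genes and are no finding on timing. From the mean at 0 dbi to that at 1 dai the fold lay between 6.97 and 367, with a median of 19.4, which is a difference of 2.80 to 8.52 on the log2 scale. The largest of these folds, in *Cc07_g11720*, rests on 3 and 2 reads at 1 dai. Summed over the 32 genes, the level was 8402 and 7934 CPM at 14 dbi, 8594 and 14112 at 9 dbi, then 13634 and 8445 at 0 dbi. It was 687 and 680.3 at 1 dai, 595 and 618 at 2 dai and finally 271 and 382 at 21 dai. The genes thus went from 0.793% to 1.41% of all gene reads to 0.0271% to 0.0687%. Over all 20745 genes with enough reads to be tested, the median level was 13.7 to 17.5 CPM before and 15.5 to 19.98 CPM after induction.

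**Figure D2:**
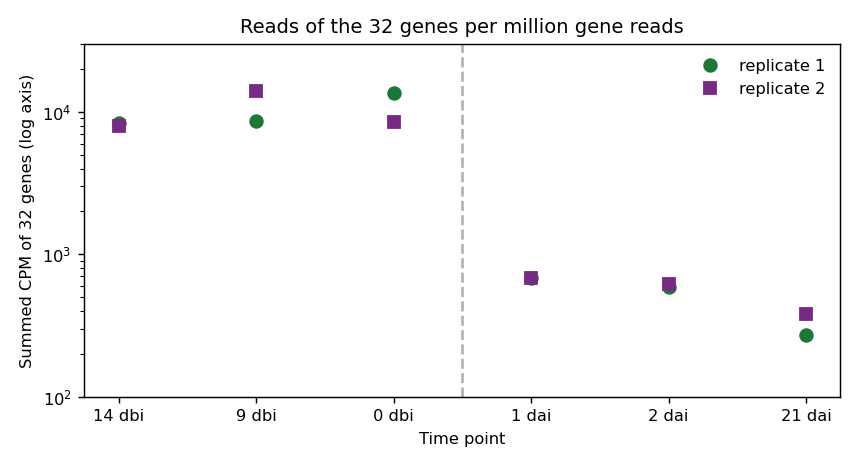
Sum of the CPM of the 32 genes (log axis) by time point, with 1 point per library and replicates 1 and 2 as different symbols. The 6 pretreatment libraries sit between 7934 and 14112 CPM, and the 6 induction libraries between 271 and 687 CPM, lowest at 21 dai. The gap between the stages is required by the choice of genes.

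Since CPM are not scaled for gene length, the classes that follow say how many reads remained, not which gene had more transcripts, and they were set after the values were seen. In 5 genes every induction library was under 2 CPM. *Cc07_g11710* was at 110.5 and 61.4 CPM at 14 dbi, 102 and 269 at 9 dbi, 69.7 and 90.3 at 0 dbi, then 0.0585 and 1.01 at 1 dai, 0.907 and 0.219 at 2 dai and finally 0.297 and 0.0972 at 21 dai. It had the widest gap between the stages, with 60 reads left in the 6 induction libraries together. *Cc07_g11720* was at 30.5 and 21.7 CPM at 14 dbi, 108 and 105 at 9 dbi, 11.8 and 83.4 at 0 dbi, then 0.176 and 0.0838 at 1 dai, 0.605 and 0.1095 at 2 dai and finally 0 and 0.0324 at 21 dai. Of its 24 reads after induction, 14 lay in replicate 1 of 2 dai and 1 at 21 dai, and the pooled level of 0.1695 CPM has a 95% exact Poisson interval of 0.109 to 0.252 that covers counting error only. The pretreatment levels of both genes peaked in libraries of 9 dbi, and the ranges of the stages were far apart.

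The other 3 genes of this class varied more before induction. *Cc03_g02730* was at 23.5 and 7.95 CPM at 14 dbi, 16.9 and 47.5 at 9 dbi, 57.9 and 25.6 at 0 dbi, then 0.4098 and 0 at 1 dai, 0.475 and 0.548 at 2 dai and finally 0 and 0.615 at 21 dai. Its means before induction were 15.7, 32.2 and 41.7 CPM in order of time, though libraries overlapped both between 14 and 9 dbi and between 9 and 0 dbi. It had no read in replicate 2 of 1 dai or replicate 1 of 21 dai. *Cc09_g09420* was at 41.6 and 22.5 CPM at 14 dbi, 10.4 and 67.8 at 9 dbi, 12.7 and 20.02 at 0 dbi, then 1.29 and 0.0838 at 1 dai, 1.56 and 1.86 at 2 dai and finally 0.495 and 0.421 at 21 dai. Its pair of libraries at 9 dbi differed 6.54-fold, which is more than the 4.603-fold gap between the stages. *Cc02_g35350* was at 139.9 and 127 CPM at 14 dbi, 8.52 and 8.49 at 9 dbi, 46.03 and 15.2 at 0 dbi, then 1.46 and 0 at 1 dai, 0.346 and 0.602 at 2 dai and finally 0.396 and 1.07 at 21 dai. Both libraries of 9 dbi and both of 0 dbi lay far under those of 14 dbi, and the 8.49 CPM of 9 dbi set the 4.58-fold gap.

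In 12 further genes the highest induction library was between 2 and 10 CPM. *Cc03_g04300* had the widest range before induction of all 32 genes. *Cc03_g04300* was at 384 and 87.98 CPM at 14 dbi, 2189 and 3891 at 9 dbi, 138 and 1201 at 0 dbi, then 6.85 and 4.19 at 1 dai, 3.11 and 1.18 at 2 dai and finally 0.595 and 2.36 at 21 dai. Both libraries of 9 dbi were above all others, the 2 libraries of 0 dbi differed 8.69-fold, and the ratio of stage means was 432. *Cc01_g21600* was at 62.1 and 114 CPM at 14 dbi, 89.6 and 168 at 9 dbi, 211 and 62.7 at 0 dbi, then 4.74 and 4.53 at 1 dai, 3.801 and 3.23 at 2 dai and finally 1.78 and 0.907 at 21 dai. The 2 libraries of 21 dai were its lowest, below all 4 of 1 and 2 dai. *Cc11_g08370* was at 143 and 29.8 CPM at 14 dbi, 103 and 421 at 9 dbi, 249 and 143 at 0 dbi, then 1.99 and 2.14 at 1 dai, 1.94 and 1.78 at 2 dai and finally 0.0991 and 0.356 at 21 dai. It also had its lowest libraries at 21 dai, where 1 and 11 reads were left. *Cc02_g11510* was at 189 and 258 CPM at 14 dbi, 95.8 and 28.2 at 9 dbi, 137 and 17.7 at 0 dbi, then 1.23 and 0 at 1 dai, 3.02 and 2.19 at 2 dai and finally 0.198 and 1.296 at 21 dai. Its 2 libraries of 0 dbi differed 7.75-fold and both were below those of 14 dbi.

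At the other end of the spread, *Cc03_g07970* and *Cc09_g10270* were nearly flat before induction. *Cc03_g07970* was at 46.8 and 42.6 CPM at 14 dbi, 37.1 and 51.3 at 9 dbi, 35.8 and 53.9 at 0 dbi, then 2.87 and 0.335 at 1 dai, 3.801 and 4.13 at 2 dai and finally 0.595 and 0.777 at 21 dai. Its 6 pretreatment libraries lay within 1.503-fold of each other. *Cc09_g10270* was at 57.3 and 49.4 CPM at 14 dbi, 51.7 and 73.4 at 9 dbi, 70.8 and 55.1 at 0 dbi, then 8.66 and 2.77 at 1 dai, 7.69 and 5.64 at 2 dai and finally 1.19 and 1.75 at 21 dai. Its pretreatment libraries lay within 1.49-fold, the narrowest range of all 32 genes, and its induction libraries were lowest at 21 dai. *Cc02_g24640* had a lowest, median and highest of 39.6, 105 and 274 CPM before induction and 0.892, 3.52 and 7.17 after it, with its highest pretreatment mean at 9 dbi. *Cc01_g12280* had a lowest, median and highest of 49.4, 62.7 and 104 CPM before induction and 3.11, 6.95 and 9.45 after it, and both libraries of 9 dbi were above the other 4. *Cc05_g12740* had a lowest, median and highest of 37.1, 121 and 292 CPM before induction and 2.2995, 4.59 and 7.73 after it, with the same order at 9 dbi. The 9 dbi maximum thus occurred both where the pair of libraries was close, as in *Cc01_g12280*, and where it was not.

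Among the remaining genes with 2 to 10 CPM, *Cc04_g04550* had a lowest, median and highest of 27.9, 42.03 and 64.1 CPM before induction and 1.99, 4.46 and 5.41 after it. *Cc03_g03470* had a lowest, median and highest of 19.5, 37.4 and 201 CPM before induction and 0, 1.47 and 3.69 after it. It was the only gene of the 32 whose 2 libraries of 21 dai were both above those of 2 dai, with 3.27 and 2.17 against 0.778 and 0.712 CPM, while 1 dai had 0 and 3.69. *Cc00_g17910* had a lowest, median and highest of 16.2, 43.99 and 120.3 CPM before induction and 0, 1.66 and 3.48 after it. It lies on sequence not placed on a chromosome.

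The other 15 genes reached 10 CPM or more in at least 1 induction library, and 5 of them did so in all 6. *Cc02_g11650* was at 1993 and 1356 CPM at 14 dbi, 952 and 1673 at 9 dbi, 6133 and 1167 at 0 dbi, then 237 and 227 at 1 dai, 117 and 147 at 2 dai and finally 58.8 and 62.3 at 21 dai. This gene had the highest pretreatment mean in CPM, 2212, of which replicate 1 of 0 dbi made up the largest part, and after induction its means were 232, 132 and 60.5 CPM in order of time. *Cc05_g10170* was at 1041 and 954 CPM at 14 dbi, 695 and 2195 at 9 dbi, 1305 and 1390 at 0 dbi, then 122 and 147 at 1 dai, 113 and 123 at 2 dai and finally 60.1 and 99.01 at 21 dai. It kept 16373 reads after induction, so its 11.4-fold difference of stage means rests on well counted values on both sides. *Cc11_g15110* was at 1241 and 866 CPM at 14 dbi, 355 and 813 at 9 dbi, 1385 and 1043 at 0 dbi, then 60.4 and 73.1 at 1 dai, 42.2 and 39.2 at 2 dai and finally 39.5 and 40.4 at 21 dai. Both libraries of 9 dbi were below those of 14 and 0 dbi. *Cc09_g10760* was at 635 and 604 CPM at 14 dbi, 308 and 254 at 9 dbi, 731 and 145 at 0 dbi, then 22.6 and 19.1 at 1 dai, 28.3 and 22.3 at 2 dai and finally 25.2 and 17.9 at 21 dai. After induction its 6 libraries lay close together, while before it replicate 2 of 0 dbi was 5.04 times lower than replicate 1. *Cc06_g09380* was at 253 and 190 CPM at 14 dbi, 232 and 359.8 at 9 dbi, 233 and 200.4 at 0 dbi, then 34.5 and 27.7 at 1 dai, 45.9 and 45.7 at 2 dai and finally 10.1 and 18.7 at 21 dai. It had the smallest ratio of stage means, 8.04, with ranges that stayed apart.

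The last 10 genes crossed 10 CPM in some induction libraries only. *Cc05_g15430* was at 268 and 224 CPM at 14 dbi, 115 and 512 at 9 dbi, 556 and 303 at 0 dbi, then 11.5 and 5.91 at 1 dai, 10.2 and 5.15 at 2 dai and finally 1.78 and 1.85 at 21 dai. Its 2 libraries of 21 dai were below all of 1 and 2 dai, and its means after induction differed 3.98-fold, close to the 4-fold limit. *Cc00_g04970* was at 185 and 846 CPM at 14 dbi, 488 and 310.1 at 9 dbi, 623 and 202 at 0 dbi, then 26.3 and 26.4 at 1 dai, 23.6 and 26.04 at 2 dai and finally 7.93 and 19.4 at 21 dai. Before induction its libraries differed by up to 4.59-fold, and at 1 and 2 dai all 4 lay within 3 CPM of each other. *Cc02_g20060* was at 159 and 143 CPM at 14 dbi, 361 and 223 at 9 dbi, 150.5 and 169.5 at 0 dbi, then 18.8 and 14.96 at 1 dai, 18.1 and 21.8 at 2 dai and finally 9.71 and 16.5 at 21 dai. *Cc09_g10170* was at 317 and 399 CPM at 14 dbi, 485 and 635 at 9 dbi, 511 and 504 at 0 dbi, then 30.97 and 24.8 at 1 dai, 46.1 and 57.9 at 2 dai and finally 5.25 and 28.7 at 21 dai. In both of these the highest pretreatment library was one of 9 dbi, and in *Cc09_g10170* the 2 libraries of 21 dai were unequal, with the shallower library the lower.

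Of the other 6, *Cc02_g28010* had a lowest, median and highest of 80.8, 139 and 189 CPM before induction and 1.49, 7.51 and 13.7 after it. *Cc06_g10390* had a lowest, median and highest of 123, 147 and 262 CPM before induction and 3.37, 15.3 and 23.1 after it. *Cc08_g14340* had a lowest, median and highest of 58.6, 87.7 and 188 CPM before induction and 2.58, 10.2 and 11.2 after it. All 3 had their lowest value in replicate 1 of 21 dai. *Cc03_g05220* had a lowest, median and highest of 94.2, 159 and 283 CPM before induction and 4.904, 16.7 and 19.2 after it. *Cc01_g16980* had a lowest, median and highest of 57.99, 291 and 593 CPM before induction and 2.18, 7.77 and 11.9 after it, and its pair at 14 dbi differed 6.73-fold. *Cc10_g03220* had a lowest, median and highest of 107, 145 and 229.8 CPM before induction and 2.97, 15.8 and 25.3 after it, with 2.97 and 7.42 CPM at 21 dai, its lowest libraries.

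**Figure D3:**
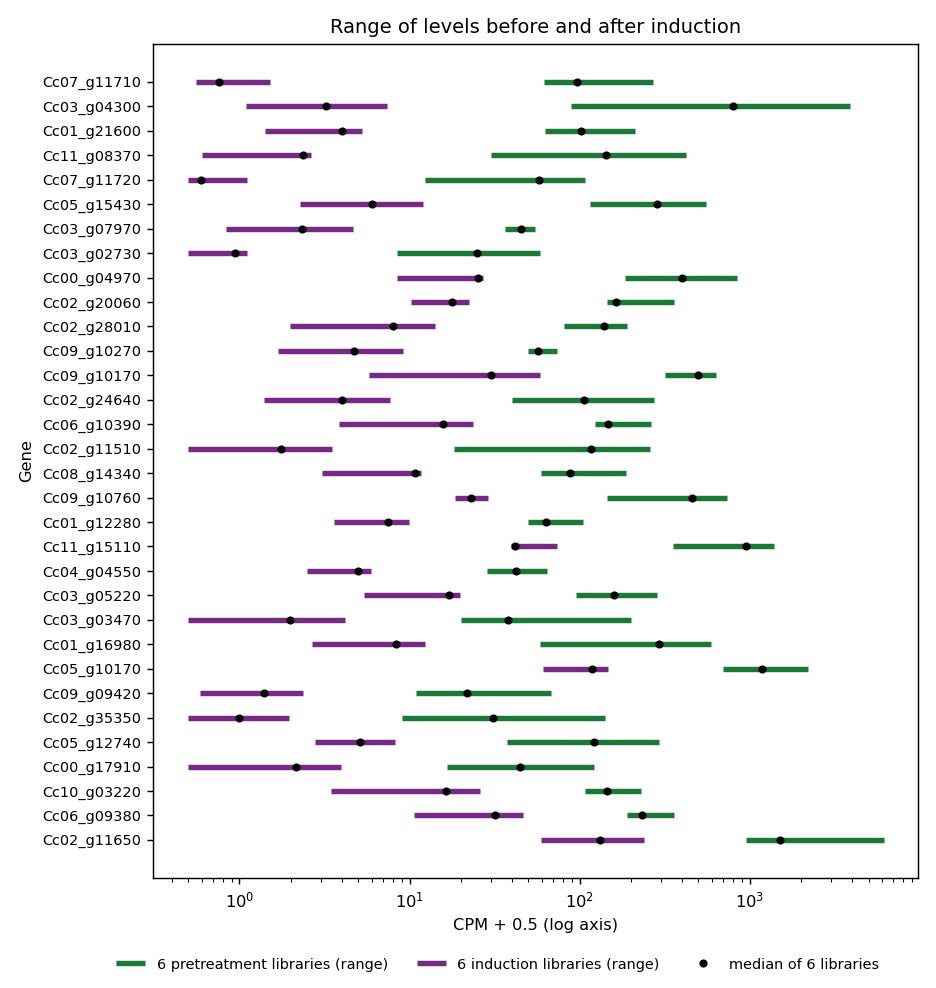
Range (line) and median (black point) of CPM + 0.5 on a log axis for each of the 32 genes, over the 6 pretreatment libraries (green) and the 6 induction libraries (purple). Green and purple lines are apart by at least 4-fold in every gene, as the choice of genes requires, while green lines differ in width from 1.48-fold (*Cc09_g10270*) to 43.98-fold (*Cc03_g04300*).

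The limit of 4 has genes close on both sides. Just inside it lay *Cc02_g11650* with a ratio of lowest pretreatment to highest induction library of 4.001, *Cc06_g09380* with 4.11 and *Cc10_g03220* with 4.18. Just outside lay *Cc07_g01970* with 3.99, *Cc10_g00810* with 3.99 and *Cc09_g04090* with 3.99. The same rule turned round, with the lowest induction library at least 4 times the highest pretreatment library, gave 91 genes. Leaving out 1 library can only widen the gap between the extremes, so that a gene is lost then by the 4-fold limit between the induction means. Without replicate 2 of 21 dai, where that time point rests on replicate 1, 20 genes met the rule, 19 of them among the 32, and without any other single library 31 to 48 did. In replicate 1 libraries alone 72 genes met the rule and in replicate 2 libraries alone 122, with 21 shared, which is 29.2% of the first and 17.2% of the second. The shared genes held 15 of the 32. In either replicate alone all of the 32 keep the gap by construction. Those not shared were lost by the 4-fold limit, there taken on single libraries, so the 15 do not measure how well the gap repeats.

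Differences between the time points of a stage were taken from a fit over all genes. The rule used these same libraries, through the lowest pretreatment and the highest induction value and through the limit on the induction means. The fitted differences are therefore given as a description of the 32 genes, with the calls over all genes beside them, and nothing is read from the members' calls. All 32 genes passed the filter on low counts, which the pretreatment levels alone could meet, and 29 to 31 of them passed it in the 4 libraries of 2 induction time points alone. Between 14 and 9 dbi, the first days with NAA and KIN, 0 of the 32 genes passed an adjusted p of 0.05 in edgeR's quasi-likelihood fit, in which 0.535% of all 20745 genes tested were called (0.0337% higher and 0.501% lower). At an unadjusted p under 0.05 there were 6 genes, against 16% of all genes tested. At 9 dbi, 5 of them were higher and 1 was lower. *Cc03_g04300* had the largest positive difference (log2 fold change 3.56, standard error 1.10) and *Cc02_g35350* the largest negative one (log2 fold change −4.05, standard error 1.09). *Cc02_g24640* had a log2 fold change of 1.91 with a standard error of 0.62. DESeq2 called these 3 genes, with 7.62% of all genes called. The median log2 fold change of the 32 genes was 0.33, and that of all genes tested −0.12.

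In 8 of the 32 genes both libraries of 9 dbi were above both of 14 dbi, a pattern that 15.7% of all genes tested showed, and in 5 genes both were below (24.4% of all genes). The 5 lower ones were *Cc06_g10390*, *Cc02_g11510*, *Cc09_g10760*, *Cc11_g15110* and *Cc02_g35350*. Both libraries of 9 dbi were above all 4 of 14 and 0 dbi in 5 genes, *Cc03_g04300*, *Cc07_g11720*, *Cc02_g20060*, *Cc01_g12280* and *Cc05_g12740* (8.66% of all genes tested), and below all 4 in 3, *Cc06_g10390*, *Cc11_g15110* and *Cc02_g35350* (13%). Between 14 and 0 dbi edgeR called 0 of the 32 genes and 0% of all genes, with 0 of the 32 at an unadjusted p under 0.05 (3.82% of all genes) and 0 called by DESeq2 (0.251%). Between 9 and 0 dbi edgeR and DESeq2 each called 0, against 0.13% of all genes by edgeR and 5.53% by DESeq2. Only *Cc11_g15110* (log2 fold change 1.22, standard error 0.49) and *Cc02_g11650* (1.68, standard error 0.72) reached an unadjusted p under 0.05 by edgeR (13.7% of all genes), both higher at 0 dbi. In *Cc02_g11650* the difference rested on replicate 1 of 0 dbi, since without that library its log2 fold change was −0.084. Both libraries of 0 dbi were above both of 14 dbi in 5 genes (9.92% of all genes tested) and below them in 3 (14.9%). The median standard error over the 32 genes was 0.64 on the log2 scale between 14 and 9 dbi. The libraries of 9 dbi were also among the 4 with fewer genes detected, whose part in these differences was not tested.

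Within induction the means were lowest at 21 dai in 25 of the 32 genes (41.5% of all genes tested), at 1 dai in 5 (41.1%) and at 2 dai in 2 (17.5%). The rule holds the 3 means within 4-fold, which limits the size of these differences, but sets no direction between them. It also caps every induction library through the lowest pretreatment one, which most genes tested do not meet. The shares of all genes are thus given as a description and are not a like comparison. From 1 to 2 dai edgeR and DESeq2 each called 0 of the 32 genes, with 0% and 1.03% of all genes called, and 0 were at an unadjusted p under 0.05 by edgeR (8.48% of all genes). The median log2 fold change was 0.18 (0.08 over all genes tested). From 2 to 21 dai the estimate was negative in 29 of the 32 genes, against 49.1% of all genes tested, and the median was −1.08 (0.01 over all genes). By edgeR 0 passed the adjusted threshold, which called 1.33% of all genes (0.766% lower and 0.559% higher), and 9 had an unadjusted p under 0.05 (15.6% of all genes), all lower at 21 dai. DESeq2 called 5, *Cc02_g28010*, *Cc03_g07970*, *Cc06_g09380*, *Cc09_g10270* and *Cc10_g03220*, and 8.06% of all genes.

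Both libraries of 21 dai lay under both of 2 dai in 21 of the 32 genes (32% of all genes tested), and above them in 1, *Cc03_g03470* (23.5%). Under all 4 libraries of 1 and 2 dai they lay in 14 genes (20% of all genes), and above all 4 in 0 (19.2%). Replicate 1 of 21 dai was the shallowest library, with 10091539 gene reads and 29.2% of reads in genes, and replicate 2 one of the deepest, with 30875717 reads and 59.9%. The summed level of the 32 genes was low in both, as the choice of genes requires. Over 21 alternatives, which include leaving out each library in turn, the median log2 fold change from 2 to 21 dai stayed between −1.68 and −0.91. The alternatives refit genes chosen with all 12 libraries, so they give no independent support for a further fall at 21 dai.

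Between 1 and 21 dai, edgeR called 1 of the 32 genes, against 5.89% of all genes tested (2.5% lower and 3.39% higher). *Cc10_g03220* went from 14.8 and 25.3 CPM at 1 dai and 23.7 and 16.9 at 2 dai to 2.97 and 7.42 at 21 dai, with no overlap. Its mean was 20.1 ± 7.43 CPM at 1 dai and 5.19 ± 3.14 at 21 dai (SD, n = 2 libraries; log2 fold change −1.87, standard error 0.46). Its highest induction library, which set its gap, was one of 1 dai. The call was lost under 11 of 20 alternatives, which were leaving out either library of 14 dbi, 1 dai, 2 dai or 21 dai, fitting the 4 libraries compared alone, adding a term for low mapping quality, and using the 8 libraries with under 15% of it. At an unadjusted p under 0.05, 10 genes were lower and 0 higher (25% of all genes in either direction). Among these, *Cc09_g10270* had a log2 fold change of −1.84 (standard error 0.54) and *Cc02_g24640* of −2.20 (standard error 0.68). The median over the 32 genes was −0.79 and over all genes tested 0.11. DESeq2 called 6, *Cc02_g11650*, *Cc02_g24640*, *Cc05_g15430*, *Cc09_g10270*, *Cc10_g03220* and *Cc11_g08370*, and 16.5% of all genes.

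**Figure D4:**
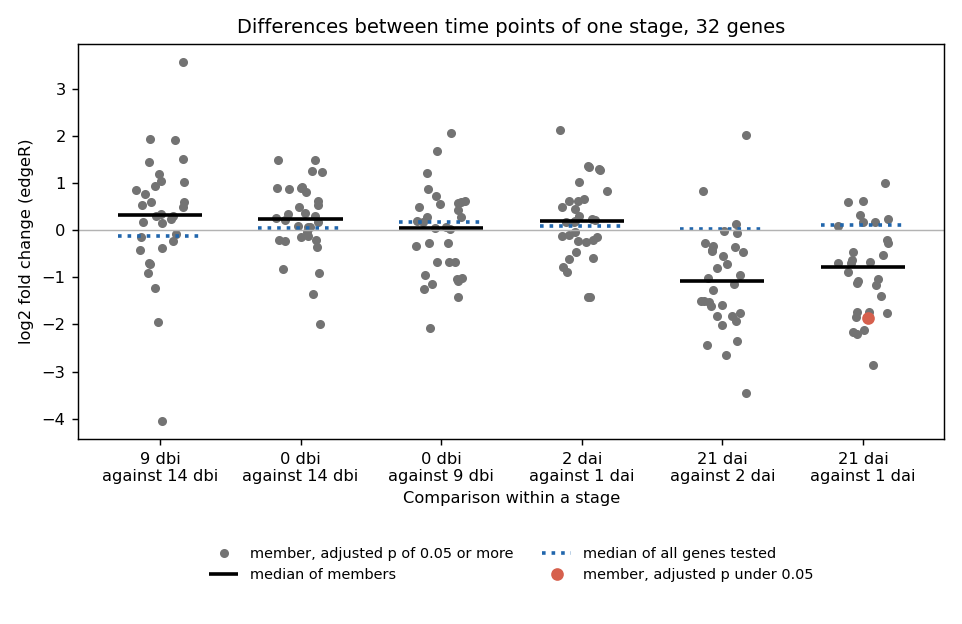
Log2 fold changes by edgeR of the 32 genes (points) in the 6 comparisons between time points of one stage, with their median (black line) and that of all genes tested (dotted line). The medians lie near 0 in the first 4 comparisons and at −1.08 and −0.79 in the last 2, where the only gene called, *Cc10_g03220*, is marked in red.

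The genes were spread over all 11 numbered chromosomes, with 6 on chromosome 2, 5 on chromosome 3, 4 on chromosome 9 and 2 on unplaced sequence. In the gene order of the AUK_PRJEB4211_v1 annotation, only *Cc07_g11710* and *Cc07_g11720* stood side by side, and *Cc09_g10170* and *Cc09_g10270* were 10 genes apart. The adjacent pair was low in all induction libraries and differed before induction. *Cc07_g11710* had 110.5 and 61.4 CPM at 14 dbi and *Cc07_g11720* 30.5 and 21.7, while replicate 1 of 9 dbi had 102 and 108. In that annotation only 78 bp lie between *Cc07_g11710* and *Cc07_g11720*, and whether they are transcribed separately was not tested. How alike the 2 genes are in sequence was not analysed here, and reads that fit both were not assessed.

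Levels of the genes next to the 32 were not part of the rule. Of the 64 immediate neighbours, 60 were tested and not among the 32. Their median log2 ratio of the mean CPM before to that after induction (plus 0.5) was 0.26, against −0.15 over all genes tested, and 9 of them (15%) were at 2 or more, against 4.37% of all genes tested. In the other direction 4 (6.67%) were at −2 or less, against 7.47% of all genes tested. These are counts with no test. *Cc11_g08360*, next to *Cc11_g08370*, had a mean of 33.5 CPM before and 0.0706 after induction. It missed the rule because its lowest pretreatment library was only 1.02 times its highest induction library, with 0.5 CPM added to each. It was thus nearly silent in its lowest pretreatment library as well. *Cc03_g05210*, next to *Cc03_g05220*, had 91.6 and 6.92 CPM. On both sides of *Cc02_g35350* the neighbours were also lower after induction, *Cc02_g35340* with 23.2 and 1.27 CPM and *Cc02_g35360* with 3.21 and 0.107. Both neighbours of *Cc00_g04970* were higher after induction, *Cc00_g04960* with 1.27 CPM before and 177 after it and *Cc00_g04980* with 5.73 and 32.9. So was *Cc01_g12290*, next to *Cc01_g12280*, with 1.52 and 37.7 CPM. Neighbours of the 32 genes thus lay on both sides.

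The *CcGH3* genes belong to a family whose enzymes, as known from *Arabidopsis*, join auxin or jasmonic acid to amino acids. Of the 18, 0 were among the 32 genes, which make up only 0.125% of all genes, so the 0 is not a trait of this family. The ratio of lowest pretreatment to highest induction library was over 1 in 2 of the 18, *CcGH3.17e* with 1.18 and *CcGH3.17i* with 1.01. The share of all genes with a ratio over 1 was not computed, so nothing about the family is read from this count. *CcGH3.17e* was at 29.7 and 53.002 CPM at 14 dbi, 33.5 and 45.2 at 9 dbi, 26.8 and 81.8 at 0 dbi, then 22.7 and 6.37 at 1 dai, 16.03 and 22.3 at 2 dai and finally 3.47 and 11.3 at 21 dai. *CcGH3.5* had a ratio of 0.881, since 27.1 CPM in replicate 2 of 14 dbi lay under 30.8 CPM in replicate 1 of 2 dai. The pretreatment and induction ranges of *CcGH3.5* thus overlapped.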

How the data were processed

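Leaves and leaf explants of *C. canephora* were sampled at 6 time points, with 2 RNA-seq libraries at each. The authors deposited 1 file of whole-number read counts per gene and library, not normalized. Per the submitters' processing notes, the tools included FastQC 0.11.5, cutadapt 1.14 and HTSeq 0.10.0. Which aligner, strand setting and build were used is not given in the sources used here. Lines of reads not assigned to a gene (40.1% to 70.8% of reads) were left out.

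CPM are counts divided by the sum over genes. Members had (CPM + 0.5) at least 4 times higher in the lowest of the 6 dbi than in the highest of the 6 dai libraries, with dai means within 4-fold. Up to 300 would have been kept. Differences within a stage, on libraries the rule also used, were fitted in one edgeR 4.0.16 quasi-likelihood fit (R 4.3.3, TMM, filterByExpr, 20745 genes) with time point as the only factor and Benjamini-Hochberg adjustment over all genes tested. DESeq2 1.42.0 was an alternative. The steps were tested on simulated counts. Counts of the 2 libraries of a time point differed by more than sampling noise (chi-square), so they were not pooled. The second ID in the files was matched to the AUK_PRJEB4211_v1 locus tags (all 25574 matched), used only for gene order and the distance within the adjacent pair. Genes named in full were mainly those with the widest gaps, the highest levels, the widest and narrowest pretreatment spread and those next to the limit, and most others were given by range. *Cc10_g03220*, next to the limit and called by edgeR, was given in full only after induction. *Cc02_g28010*, also among those with the wider gaps, was given by range. Members, lists and tests were chosen with earlier results of these data known. Planned protein and promoter features and keyword lists were not analysed here.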

Additional observations from a re-analysis of the deposited data

How the results depend on the processing

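The number of genes that met the rule was 32. It was 162 with a 2-fold gap, 6 with an 8-fold gap, 52 with no limit between the later means and 14 with a 2-fold limit, all by construction, and 72 and 122 in the libraries of replicate 1 or replicate 2 alone, where fewer samples must pass. With 1 library left out it ran from 20 to 48. Other scalings (TMM, RLE) and pseudocounts (0.1 and 1 CPM) gave counts within 1.5 times of 32. The members changed more than the counts with the pseudocount. Of the 32 genes, 26 were kept with 0.1 CPM and 28 with 1 CPM, against 31 with TMM and 31 with RLE. Of the alternatives chosen after seeing the data, the 8 libraries under 15% low mapping quality gave 86 genes and leaving out 9 dbi and 1 dai gave 89, again with fewer samples. DESeq2 called 3 of the 32 genes between 9 and 14 dbi, 5 between 21 and 2 dai and 6 between 21 and 1 dai, against 0, 0 and 1 by edgeR. Of all genes tested, DESeq2 called 7.62%, 8.06% and 16.5% in these comparisons. With 1 library left out, the median log2 fold change of the 32 genes by edgeR from 1 to 21 dai ran from −1.36 to −0.70. Between 21 and 2 dai edgeR called 2 of the 30 genes tested on the 4 libraries compared, where 2730 of 20021 genes passed. Without 9 dbi and 1 dai it called 2, where 813 of 20566 genes passed. Between 21 and 1 dai it called 0 with a term for low mapping quality, where 967 of 20745 genes passed. Why the calls differed between fits was not tested. The median from 2 to 21 dai stayed between −1.68 and −0.91 over 21 alternatives, with 24 to 30 genes lower, always on genes chosen with all 12 libraries. For *Cc10_g03220* between 21 and 1 dai the log2 fold change ran from −2.56 to −1.45, and 9 of 20 alternatives kept the call.

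Libraries with the same replicate number deviated together (correlation over 0.1) in 5 of 15 pairs of time points (−0.05 to 0.39 over all 15). All 5 lay among 14 dbi, 0 dbi, 2 dai and 21 dai (0.25 to 0.39), though 14 and 0 dbi had 0.05. These are the time points whose replicate 1 had the larger share of low mapping quality. The numbers were not used as pairs in the main fit, and the source of this shared deviation was not tested. With a replicate block edgeR called 1 of the 32 genes between 21 and 1 dai, where 1303 of 20745 genes passed. It called 0 of the 32 in each other comparison, where 0 to 290 genes passed, and both counts for the 32 were as without the block. Alternatives for promoter motifs and protein relatives were not run, since no sequences were used here.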

Other observations

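Beside the 32 genes, 20 genes passed the 4-fold gap between the stages but had means after induction that differed 4-fold or more. In 18 of them the mean was lowest at 21 dai. *Cc10_g11890* was at 1113 and 818 CPM at 14 dbi, 1064 and 2103 at 9 dbi, 834 and 2784 at 0 dbi, then 59.6 and 89.1 at 1 dai, 88.2 and 91.4 at 2 dai and finally 0.0991 and 0.648 at 21 dai. *Cc07_g02160* was at 2187 and 6787 CPM at 0 dbi, 26.6 and 22.2 at 1 dai, 27.2 and 15.9 at 2 dai and finally 0.396 and 1.39 at 21 dai, with a ratio of lowest pretreatment to highest induction library of 50.6. *Cc00_g15710* went from 17031 and 15938 CPM at 0 dbi to 532 and 581 at 1 dai, 1086 and 1057 at 2 dai and finally 121 and 156 at 21 dai. The other 2 were *Cc00_g14320*, with 41.2 and 30.1 CPM at 1 dai, 95.7 and 169 at 2 dai and finally 98.3 and 224 at 21 dai, and *Cc00_g01980*, with 0.0585 and 0 CPM at 1 dai, 1.43 and 2.27 at 2 dai and finally 0 and 0.551 at 21 dai. These values chose the genes and were not tested.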
